A study of Mus musculus with 6 samples.

Results

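Proteasome genes were taken as the protein-coding mouse genes whose symbol starts with Psma to Psmg followed by a digit. The rule found 50 of the 31053 genes listed in each file. They comprise 19 core genes (8 Psma and 11 Psmb), 21 regulatory genes (7 Psmc and 14 Psmd), 5 Psme activators, the inhibitor gene Psmf1 and 4 Psmg assembly chaperones. The symbol rule also takes in Psmc3ip, which encodes a recombination factor and not a proteasome subunit, and Psmd5, Psmd9 and Psmd10, which encode chaperones of regulatory particle assembly.

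The libraries came from primary cortical neurons of wild-type C57BL/6J mouse embryos at E18, cultured with Floxuridine from day in vitro 3 to limit dividing cells. All cultures were infected at day 6 with an adeno-associated virus carrying an inducible Ribo-STAMP construct, received 1 µg/ml doxycycline for 48 h and were collected at day 14. In Ribo-STAMP the cytidine deaminase APOBEC1 is fused to a ribosomal protein, so that mRNAs bound by the tagged ribosomes acquire C-to-U edits. The fusion partner was mouse RPL10A in 3 libraries (RPL10A-STAMP) and mouse RPL22 in the other 3 (RPL22-STAMP), and the comparison asks how the choice of variant affects editing. A synapsin promoter drove the transactivator in both variants, which restricts the intended editor expression to neurons, and no library without an editor was analysed here. The labels do not say how many embryos or separate cultures stand behind the 3 libraries of a variant, and the study calls them biological replicates in its methods and technical replicates in 1 place of its text. The p-values below measure the spread between these libraries, which may be technical.

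The value deposited for each gene was the number of edits per read (EPR), given here as edits per 1000 reads. EPR divides by the reads of the same gene in the same library, so it is not a measure of transcript abundance, and it also depends on how many cytidines can be edited. The read counts behind each gene's EPR are unknown, so no counting interval can be given, and a gene listed at 0 may have had reads without an edit or no reads. The median of the 8046 genes with edits in every library was 11.97, 15.3 and 16.1 edits per 1000 reads in RPL10A-STAMP replicates 1 to 3 and 9.07, 12.9 and 11.2 in RPL22-STAMP replicates 1 to 3. Of the markers examined, 7 of 7 neuronal genes, 3 of 4 astrocyte genes, 1 of 4 oligodendrocyte lineage genes and 0 of 4 microglial genes were edited in all 6 libraries. The astrocyte genes Gfap, Aqp4 and Slc1a3 thus carried edits in cultures labelled as neurons, and their part in the proteasome values was not tested.

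The proteasome degrades proteins tagged with ubiquitin. Its core particle is a barrel of stacked rings, with outer rings of alpha subunits (Psma genes) that gate the entry and inner rings of beta subunits (Psmb genes), 3 of which are proteolytic. The regulatory particle caps the barrel: a base with 6 ATPases (Psmc genes) unfolds and threads the substrate, and a lid of non-ATPase subunits includes the deubiquitinase Psmd14. Psmd genes encode lid subunits, the non-ATPase base subunits Psmd1, Psmd2 and Psmd4, and the assembly chaperones named above. In neurons the proteasome is known for roles in synaptic protein turnover and plasticity.

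The editor acts on cytidines, and rat APOBEC1 favours those with A or U on each side. The windows below are the 30 coding bases, within 1 exon and on the mRNA strand, with the most cytidines in the contexts ACA, ACT, TCA or TCT. Capitals mark these cytidines, and the neighbour of a capital at the end of a window lies just outside it. They are shown for the genes on which the results turn. Psma1 and Psme4 were called different between the variants by the main fit described below, though not under every alternative setting. Psme3 and Psmb6 had the most negative differences among genes whose libraries did not overlap between the variants after scaling to the median gene. Psmc2 and Psmc1 had the lowest mean EPR. The files give no edit positions, so the capitals are candidate letters and not observed edits.
Psma1: CagaccaCttcctgtgtCtcgtCttgtgtC
Psme4: ttCtgcatCatCttCttcgttCtaccaCaC
Psme3: agaataCatCagcctccggctCatCatCtC
Psmb6: cgatCaCatCttCtgctgccgctCaggctC
Psmc2: caggttgaagatgaCattCaaCaaCttCtC
Psmc1: tccaCatCtgtgggctCagaaCaCtacgtC
On GRCm38 these windows lie at chr7:114271068-114271097 (Psma1, minus strand), chr11:30820040-30820069 (Psme4), chr11:101320765-101320794 (Psme3), chr11:70526339-70526368 (Psmb6), chr5:21795793-21795822 (Psmc2) and chr12:100115510-100115539 (Psmc1), the last 5 on the plus strand. The whole coding sequence of Psma1 held 58 such cytidines, 34.1% of its 170, and that of Psme4 held 414, 36.9% of its 1121. The shares were 34.8% in Psme3, 23.2% in Psmb6, 29.8% in Psmc2 and 29.7% in Psmc1.

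Most proteasome genes were edited in every library, and at a low rate. In all, 36 of the 50 genes were edited in all 6 libraries, against 25.9% of all listed genes and 36.1% of listed protein-coding genes. These 36 comprised 7 of 8 Psma, 7 of 11 Psmb, 6 of 7 Psmc and 13 of 14 Psmd genes, together with Psme3, Psme4 and Psmf1. Of these, 28 lay below the median gene in all 6 libraries, a position held by 21.3% of the 8046 genes, and 0 lay above it in all 6. The 8046 genes all had an edit in every library, and a gene with few reads can meet that only at a higher EPR. The reads are unknown, so the part of read depth in this position was not tested. In these bulk libraries fewer cells that translate a gene and less editing in each cell cannot be told apart. Reads from near-identical copies may also enter a gene's EPR: 8 genes had over 50% of their transcript in exact runs of at least 50 bases found elsewhere in the genome, led by Psmb3 (90.1%), Psmb5 (83.6%) and Psme2b (79.7%). Among the 18 edited genes without such a run, 14 lay below the median gene in all 6 libraries. The part of copied reads in the low EPR was not tested, and copies with only shorter exact runs were not searched.

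**Figure D1:**
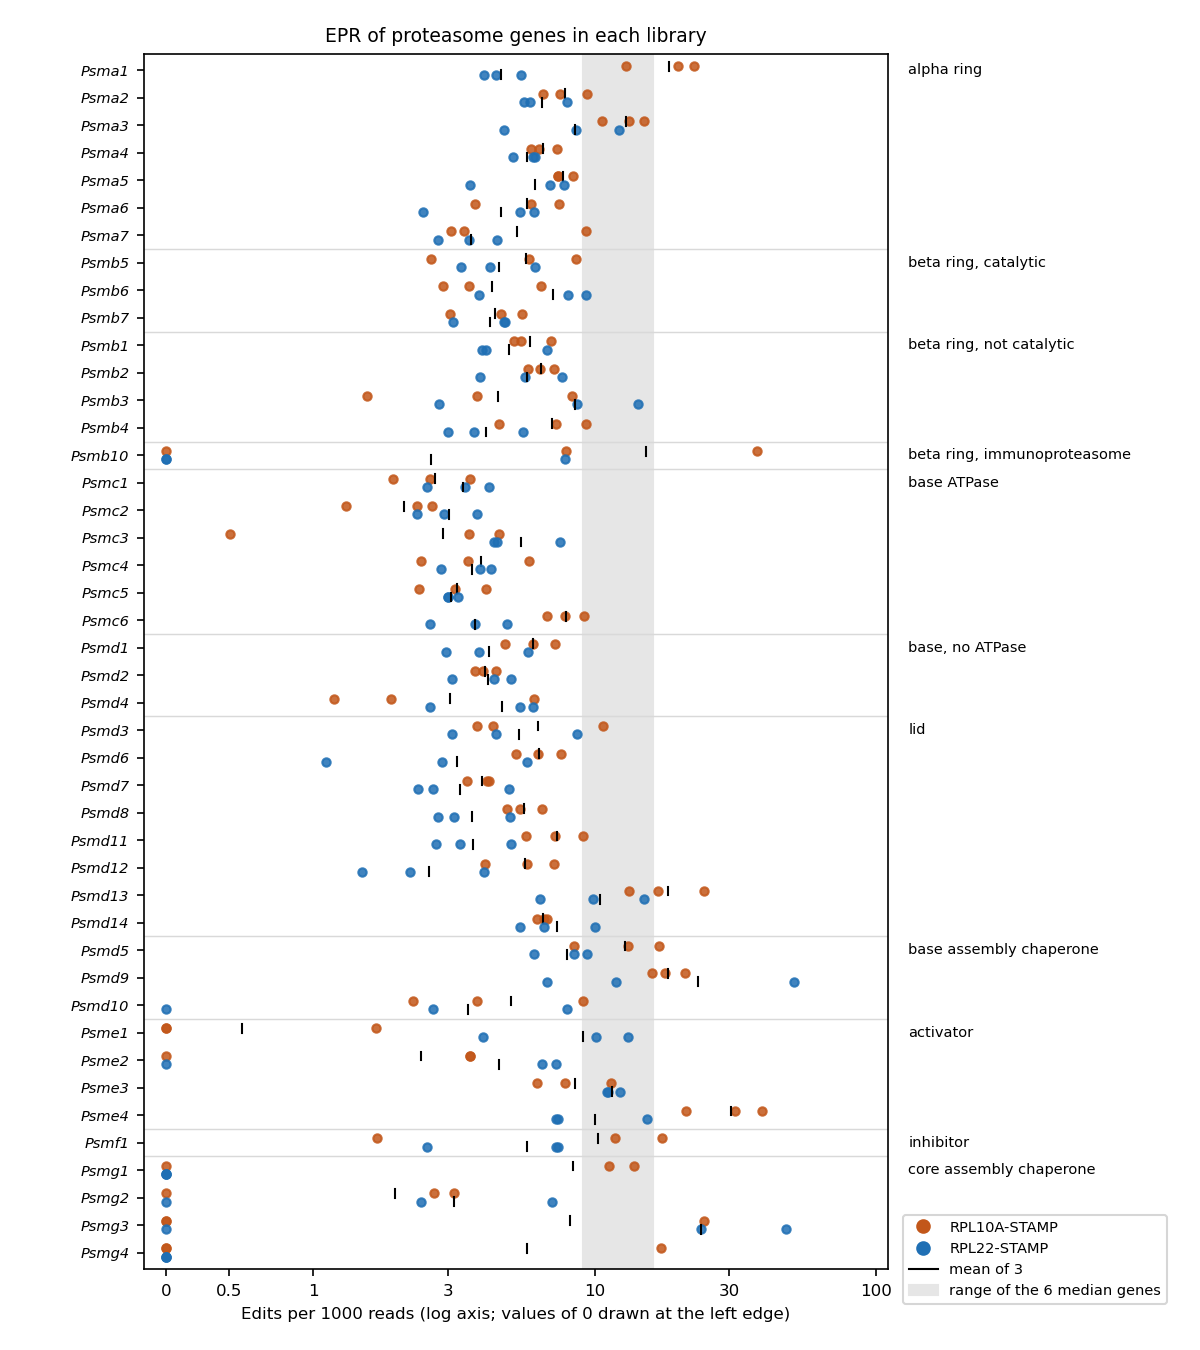
Edits per 1000 reads (log axis, 0 at the left edge) of the 44 proteasome genes edited in at least 1 library, grouped by role. Orange points are the 3 RPL10A-STAMP libraries, blue points the 3 RPL22-STAMP libraries, ticks their means, and the grey band spans the 6 library medians (9.07 to 16.1). Most points lie to its left. Psma1, Psme4, Psmc6, Psmd11 and Psmd12 have all orange points to the right of the blue ones, narrowly so for Psmd12.

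Among the alpha ring genes the mean EPR over the 6 libraries ran from 4.44 (Psma7) to 11.5 (Psma1) edits per 1000 reads. Psma1, an alpha subunit gene on chromosome 7 (114264606 to 114276118, minus strand), had 12.9, 19.7 and 22.5 with RPL10A-STAMP against 4.04, 4.46 and 5.45 with RPL22-STAMP. The variants did not overlap, and Psma1 was above the median gene in all 3 RPL10A-STAMP libraries and below it in all 3 RPL22-STAMP libraries. Psma3, another alpha subunit gene, had 10.6, 14.9 and 13.2 with RPL10A-STAMP against 4.75, 12.1 and 8.58 with RPL22-STAMP, and there the variants overlapped. Psma6 stayed low in both, with 5.93, 3.76 and 7.46 against 2.46, 6.09 and 5.40. Psma7 had 3.41, 9.29 and 3.09 against 4.51, 2.78 and 3.58, so that its RPL10A-STAMP mean rested on replicate 2. Psma8, the alpha subunit of male germ cells, was listed at 0 in all 6 libraries.

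The beta ring genes edited in all 6 libraries lay in a narrower range, from a mean of 4.31 (Psmb7) to 6.53 (Psmb3). Psmb5, the gene for the chymotrypsin-like subunit, had 5.81, 2.62 and 8.60 with RPL10A-STAMP against 6.13, 4.23 and 3.34 with RPL22-STAMP. Psmb6, for the caspase-like subunit, had 3.58, 6.44 and 2.88 against 3.88, 8.02 and 9.33. Psmb7, for the trypsin-like subunit, had 5.52, 4.65 and 3.05 against 3.12, 4.79 and 4.76. All 3 proteolytic subunits were thus below the median gene in every library. Psmb2 and Psmb3, structural beta subunits, had the highest means; Psmb3 varied most, from 1.55 to 8.28 with RPL10A-STAMP and from 2.79 to 14.2 with RPL22-STAMP, and is also the gene with the largest copied share. Psmb2 ranged from 3.91 to 7.63 over the 6 libraries.

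The immune and tissue-restricted core genes stood apart from the constitutive ones. Psmb8 and Psmb9, the interferon-induced counterparts of Psmb5 and Psmb6, and Psmb11, the thymic form, were listed at 0 in all 6 libraries. Psmb10, the interferon-induced counterpart of Psmb7, had 7.87, 37.7 and 0 with RPL10A-STAMP against 0, 7.84 and 0 with RPL22-STAMP. Values of 0 in every library were also common among all genes, at 58.7% of listed and 44.5% of listed protein-coding genes. Of the microglial genes, Csf1r and Aif1 were likewise at 0 in all 6 libraries, while Cx3cr1 was edited in 2 libraries and C1qa in 1.

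Among the Psma, Psmb, Psmc and Psmd families, the Psmc genes for the base ATPases had the lowest median EPR in each library. Split by role, smaller groups of Psmd genes had lower medians in RPL10A-STAMP replicate 2 and RPL22-STAMP replicates 1 and 3. In the remaining libraries they did not. All 6 of Psmc1 to Psmc6 were below the median gene in every library, and Psmc2 had the lowest mean of the 36 genes, 2.56 ± 0.821 (SD, n = 6). Psmc2 had 2.33, 1.30 and 2.63 with RPL10A-STAMP against 2.34, 3.81 and 2.92 with RPL22-STAMP, and Psmc1 had 1.92, 3.61 and 2.58 against 4.19, 2.52 and 3.45. Psmc1 shares 50.9% of its transcript with other places in the genome and Psmc2 none. Psmc3 was even lower in RPL10A-STAMP replicate 3, at 0.507, but had 3.56 and 4.56 in replicates 1 and 2, and 4.37, 4.50 and 7.51 with RPL22-STAMP. Psmc6 had the highest mean of the ATPases, 5.82, with 7.83, 6.74 and 9.12 against 3.76, 2.60 and 4.89. It was the only ATPase gene whose unscaled values were higher in every RPL10A-STAMP library than in every RPL22-STAMP library.

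The Psmd genes spread most widely, from 3.64 (Psmd7) to 20.7 (Psmd9). Psmd9, an assembly chaperone gene, had 15.97, 17.7 and 20.9 with RPL10A-STAMP but 50.8, 6.76 and 11.9 with RPL22-STAMP, so its high RPL22-STAMP mean rested on replicate 1. Of its exon bases 25.5% overlap a gene on the opposite strand. Psmd13, a lid subunit, had 24.4, 16.8 and 13.3 against 6.40, 14.9 and 9.87. The deubiquitinase gene Psmd14 was close to constant with RPL10A-STAMP, at 6.60, 6.77 and 6.23, and had 6.59, 10.01 and 5.44 with RPL22-STAMP. Psmd4, a ubiquitin receptor of the base, had 6.07, 1.181 and 1.89 against 5.42, 6.00 and 2.60. Psmd7, the lid partner of Psmd14, had 3.52, 4.15 and 4.20 against 4.96, 2.65 and 2.36. Psmd10, the third assembly chaperone gene, was at 0 in RPL22-STAMP replicate 1 and between 2.26 and 9.05 in the other libraries.

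The activators, which bind the ends of the core in place of the regulatory particle, differed from each other. Psme4, encoding a large ATP-independent activator of the nucleus, had 21.1, 31.4 and 39.2 with RPL10A-STAMP against 7.29, 15.4 and 7.39 with RPL22-STAMP, without overlap. Psme3, for another nuclear activator, had 6.22, 7.82 and 11.4 against 11.1, 12.3 and 11.2, which overlapped before scaling. Psme1, an interferon-induced activator gene, had 1.67, 0 and 0 with RPL10A-STAMP against 4.01, 13.1 and 10.1 with RPL22-STAMP. All 3 RPL22-STAMP values of Psme1 were above all RPL10A-STAMP values (exact two-sided permutation test, p = 0.1), but 2 of the 3 lower values were listed at 0 and 32.5% of its transcript is copied elsewhere. Its partner Psme2 had 0, 3.61 and 3.61 against 6.47, 7.26 and 0, and Psme2b was at 0 throughout; both share over 50% of their transcript with other places in the genome. Psmf1, for a proteasome inhibitor, ranged from 1.68 to 17.3 with RPL10A-STAMP and from 2.53 to 7.38 with RPL22-STAMP.

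None of the 4 chaperone genes of core assembly was edited in all 6 libraries. Psmg1 had 0, 11.2 and 13.8 with RPL10A-STAMP and was at 0 in all RPL22-STAMP libraries. Psmg2 had 2.67, 0 and 3.17 against 7.04, 2.40 and 0, and Psmg3 had 0, 0 and 24.4 against 23.8, 47.6 and 0. Psmg4 was edited in RPL10A-STAMP replicate 1 only, at 17.2. Psmc3ip, the recombination factor, was at 0 in all 6 libraries.

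Core genes had a somewhat higher median EPR than regulatory genes in 5 of the 6 libraries. The median over the 14 core genes edited in all libraries was 5.94, 6.81 and 7.15 edits per 1000 reads with RPL10A-STAMP against 4.63, 4.63 and 6.12 with RPL22-STAMP. The median over the 19 regulatory genes was 6.03, 5.25 and 4.79 with RPL10A-STAMP against 4.37, 4.04 and 3.87 with RPL22-STAMP. RPL10A-STAMP replicate 1 was the exception, with a core median 0.984 times the regulatory one, and in the other 5 libraries the ratio ran from 1.06 to 1.58. The mean log2 ratio over the 6 libraries was 0.31 ± 0.27 (SD, n = 6), so the difference was close in size to its spread between libraries. Leaving out the assembly chaperone genes Psmd5 and Psmd9 left 17 regulatory genes, and the core median was then higher in every library. The mean log2 ratio was 0.41 ± 0.31 (SD, n = 6) in that setting, from 0.055 to 0.83. The genes of a list are not replicates, and no test was made over them.

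The split by prefix shows which genes lay behind these medians. Psmc genes had the lowest median of the 4 families in each library, from 2.61 to 4.34. Psma genes had 6.53, 9.29 and 7.52 with RPL10A-STAMP against 4.51, 6.09 and 5.45 with RPL22-STAMP. Psmb medians ran from 4.10 to 6.78 and Psmd medians from 3.87 to 6.50, and these ranges overlapped almost wholly. Leaving out genes with a copied run, a choice made after seeing the data, left 5 core and 10 regulatory genes. The core median was then above the regulatory one in all 6 libraries (from 3.91 to 7.30 against 3.21 to 4.80), with a mean log2 ratio of 0.48. This step dropped genes with a copied run however small. Among them were the regulatory genes with the highest mean EPR, Psmd9 (2.73% copied), Psmd13 (3.12%) and Psmd5 (3.64%). Whether copied reads account for the change in the ratio was not tested. With the trend of each library with transcript length removed, the mean log2 difference fell to 0.02. It was 0.10 on the same log2(EPR + 0.01) scale without that step. Core genes had shorter transcripts, with a median of 1162.5 bases against 1819 for regulatory genes and 3455 for all genes tested. Their coding sequences, which that step did not use, had medians of 741, 1254 and 1461 bases in the same order.

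**Figure D2:**
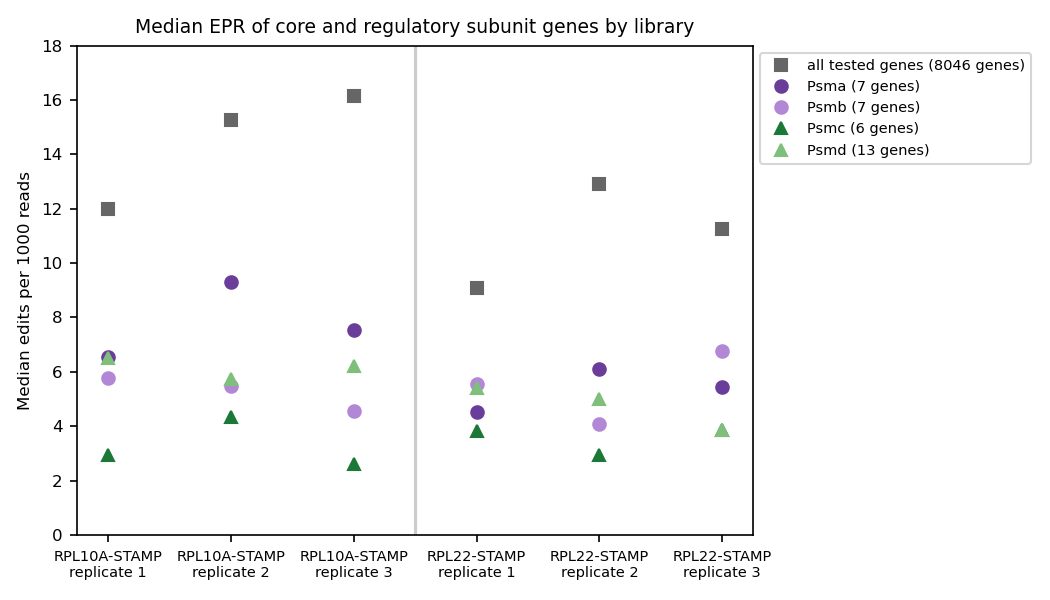
Median edits per 1000 reads in each library for Psma and Psmb genes (circles), Psmc and Psmd genes (triangles) and all 8046 genes tested (squares). All 4 proteasome families lie below the square in each library, and Psmc has the lowest median, from 2.61 to 4.34.

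To compare the variants gene by gene, each library was scaled to its median gene and limma was fitted to log2(EPR + 0.01) over the 8046 genes. The pseudocount equals 10 edits per 1000 reads, above the EPR of most proteasome genes, so these log2 fold changes understate the ratio of the EPR values, and ratios of means are given beside them. At a Benjamini-Hochberg adjusted p under 0.05, 2 of the 36 proteasome genes were called, both higher with RPL10A-STAMP, and 0 were higher with RPL22-STAMP. Over all genes tested 14.3% were called, of which the RPL10A-STAMP side made up 8.51% of genes and the RPL22-STAMP side 5.77%. At an unadjusted p under 0.05, limma gave 2 proteasome genes on the RPL10A-STAMP side (17.1% of all genes) and 3 on the RPL22-STAMP side (13.8% of all genes).

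Psma1 had a mean of 18.4 ± 4.93 edits per 1000 reads with RPL10A-STAMP and 4.65 ± 0.723 with RPL22-STAMP (SD, n = 3 each). That is a ratio of 3.96, or 2.96 after scaling, and a log2 fold change of 0.75 ± 0.13 (SE; limma, adjusted p = 0.0133). Its mRNA had no exact copy elsewhere. An exact two-sided permutation test over the 6 libraries gave p = 0.1, the smallest value that 3 against 3 allows. The call was lost without RPL10A-STAMP replicate 2 (limma, adjusted p = 0.0508) and without replicate 3 (limma, adjusted p = 0.0575).

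Psme4 had 30.6 ± 9.05 edits per 1000 reads with RPL10A-STAMP and 10.01 ± 4.63 with RPL22-STAMP (SD, n = 3 each). The ratio was 3.05, or 2.36 after scaling, and the log2 fold change 0.78 ± 0.17 (SE; limma, adjusted p = 0.0260; permutation p again 0.1). Its call was lost without RPL10A-STAMP replicate 2 or 3 and without RPL22-STAMP replicate 1 or 3 (limma, adjusted p from 0.0628 to 0.0946). It was also lost with the replicate number as a block (adjusted p = 0.0660) and with the GC trend removed (adjusted p = 0.0796), where Psma1 was still called (adjusted p = 0.0467 and 0.0478). With both the block and the GC trend removed neither gene was called (limma, adjusted p = 0.104 for Psma1 and 0.136 for Psme4). Testing more genes also ended the Psme4 call, at an adjusted p of 0.0535 with those edited in at least 3 libraries and 0.0727 with those edited in any.

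The other 34 genes were not called. The nearest was Psme3, with a scaled mean of 7.26 edits per 1000 reads for RPL10A-STAMP and 13.2 for RPL22-STAMP and a log2 fold change of -0.43 ± 0.13 (SE; limma, adjusted p = 0.0736). Psmb6 followed at -0.37 ± 0.15 and Psmc3 at -0.37 ± 0.16 (SE; limma, adjusted p = 0.144 and 0.160). After scaling, the variants did not overlap for 9 of the 36 genes, against 37.1% of all genes. Every RPL10A-STAMP library was above every RPL22-STAMP library for Psma1, Psme4, Psmc6 and Psmd12, and below for Psme3, Psmb6, Psmc3, Psmc2 and Psmd2. The 95% intervals of 31 of the 36 log2 fold changes included 0. Some of these intervals were wide: that of Psmd9 ran from -1.53 to 0.97 and that of Psmb3 from -1.17 to 0.24, while that of Psmc5 ran from -0.31 to 0.14.

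**Figure D3:**
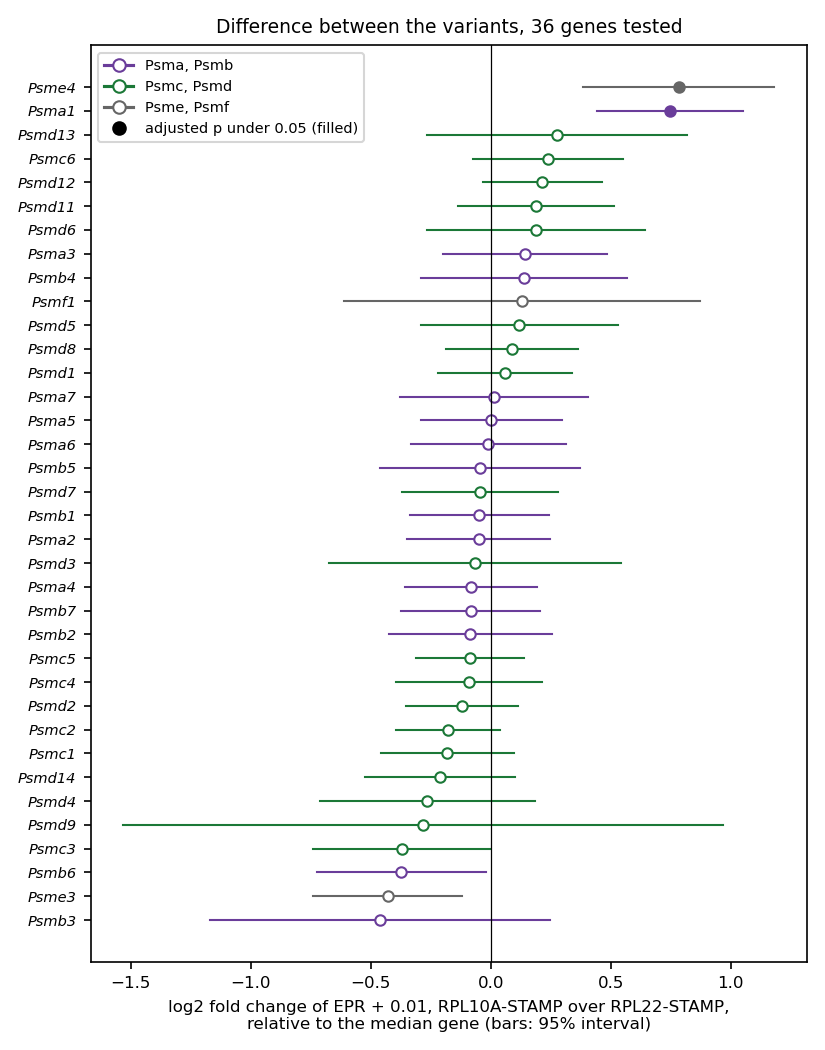
log2 fold change of EPR + 0.01, RPL10A-STAMP over RPL22-STAMP, for the 36 genes tested (points, with 95% intervals as bars), coloured by family and ordered by size. Psme4 (0.78) and Psma1 (0.75) are filled as the 2 genes with an adjusted p under 0.05, and 31 intervals include 0.

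Taken by family, the median log2 fold change was -0.05 over the 14 core genes and -0.07 over the 19 regulatory genes, beside -0.01 over all genes tested. Among core genes 5 values were above 0 and 9 below, and among regulatory genes 8 above and 11 below. The families thus ranged on both sides of 0: from -0.46 to 0.75 among core genes and from -0.37 to 0.27 among regulatory genes. Scaling sets the zero of these values: unscaled, 26 of the 36 genes had a higher mean with RPL10A-STAMP, the medians became 0.10 for core and 0.07 for regulatory genes, and the median of all genes moved to 0.18.

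The position of the genes by EPR was only partly shared between libraries. Over the 36 genes, Spearman's rho between libraries had a median of 0.60 within RPL10A-STAMP, 0.46 within RPL22-STAMP and 0.38 between the variants, as a description over genes that share libraries. Over all genes tested the same medians were 0.79, 0.68 and 0.55. Core genes taken alone had a median rho of 0.07 within RPL22-STAMP, from -0.39 to 0.35 over the 3 pairs, and regulatory genes 0.49. The order of core genes within the RPL22-STAMP libraries was therefore poorly resolved.

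Sequence composition varied with these values in the same direction as in the rest of the transcriptome. Over the 36 genes the log2 fold change and the GC content of the transcript had a Spearman's rho of -0.48, and over all genes -0.47. EPR with RPL10A-STAMP had a rho of -0.47 with GC content and EPR with RPL22-STAMP a rho of -0.02 over the same 36 genes. Psma1 and Psme4 both had a GC content below the median of all genes (48.9%), at 44.0% and 43.9%. The median GC content was 48.9% for core and 49.7% for regulatory genes. Cytidines flanked by A or U numbered 71.7 per kb in the median core gene, 64.4 in the median regulatory gene and 69.6 in the median of all genes tested. No p is given for these correlations, since genes share libraries and base composition.

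**Figure D4:**
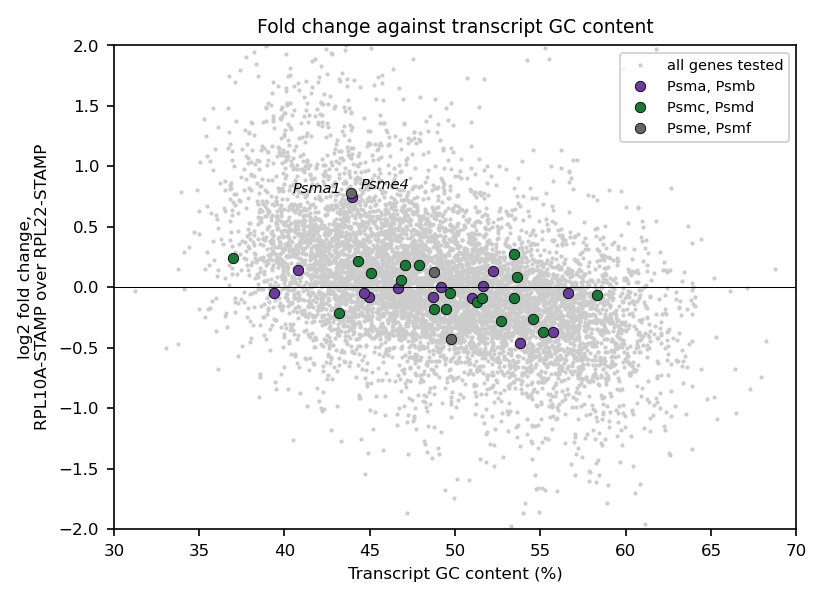
log2 fold change of EPR + 0.01, RPL10A-STAMP over RPL22-STAMP, against transcript GC content in percent, for the genes tested (grey) and the 36 proteasome genes (coloured by family). The proteasome points fall within the grey cloud with a rho of -0.48, Psma1 and Psme4 lie at its upper left, and 29 of the 8039 genes with a GC content lie outside the plotted range.

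Other genes of the pathway, none of them matched by the symbol rule, were listed from general knowledge: assembly factors, ubiquitin receptors, shuttles, ligases and regulators of proteasome synthesis. Of 24 found, 23 were edited in all 6 libraries, and 5 of those lay below the median gene in all 6. Higher with RPL10A-STAMP were 4 of the 23 (8.51% of all genes tested): Ube3a, a ubiquitin ligase (58.4 ± 10.2 against 16.9 ± 2.60 edits per 1000 reads, SD, n = 3 each; limma, adjusted p = 0.00472), the cytosolic deglycosylase gene Ngly1 (53.3 ± 9.33 against 10.9 ± 7.997; adjusted p = 0.0339), the proteasome-bound ligase gene Ube3c (29.5 ± 9.05 against 11.8 ± 2.54; adjusted p = 0.0363) and the proteasome adaptor gene Ecpas (15.7 ± 3.33 against 5.07 ± 1.98; adjusted p = 0.0355). Higher with RPL22-STAMP was 1 (5.77% of all genes tested), Zfand5, which encodes a zinc finger activator of the proteasome (13.1 ± 2.13 against 21.9 ± 1.29; limma, adjusted p = 0.0191). Of 15 alternative settings, applied to these genes after seeing the data, Ube3a was called in 14, Zfand5 in 9, Ngly1 in 5 and Ube3c and Ecpas in 4 each. The remaining 18 tested did not pass. Sem1, a small lid subunit gene without a Psm symbol, had 18.9 ± 1.92 against 25.5 ± 0.913 (limma, adjusted p = 0.0573), and Pomp, a core assembly factor, had 3.11 ± 0.636 against 2.86 ± 0.640. Adrm1, the ubiquitin receptor gene of the base, was edited in 5 libraries.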

How the data were processed

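Bulk polyA RNA libraries (stranded; 3 per variant) were analysed. Per the labels and the study's methods, the authors used cutadapt for trimming, STAR for alignment (mm10), SAILOR for C-to-U edits and featureCounts for reads in each gene. The deposited value is a ratio, edits divided by reads per gene, with no normalization between libraries. The gene annotation is not given in the sources used here, and the reads behind each EPR are unknown, though the methods state 1 nominal sequencing depth for all samples. STAR kept reads with several locations, so copies elsewhere can add reads.

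Identifiers were matched to GENCODE release M21 (31011 of 31053 found). Values were scaled to each library's median gene and fitted as log2(EPR + 0.01) with limma 3.58.1 (trend) in R 4.3.3 over 8046 genes edited in all 6 libraries. Tables were handled with pandas 2.3.3 and permutation tests run with scipy 1.17.1. The fit was tested on simulated data. Transcript features came from GENCODE, and exact runs of at least 50 bases were searched in GRCm38, the assembly that mm10 names.

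Genes named were those called, the proteolytic, immune and activator genes, Psmd14, the 2 highest and 2 lowest by EPR in each of Psma, Psmb, Psmc and Psmd, and genes at 0 in any library; Sem1, Pomp, Adrm1, Psme2b, Psmf1, Psmc5, Psmd2, Psmd5, Psmd11 and Psmd12 were named after their values were seen. The members and lists were chosen with earlier results of these data known. Alternatives covered pseudocount, scaling, filter, replicate block, GC and length trends, left-out libraries and the methods' test. Paaf1, also listed, matched no identifier and was not analysed here.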

Additional observations from a re-analysis of the deposited data

How the results depend on the processing

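The count of genes called higher with RPL10A-STAMP was 2. It was 1 when genes edited in at least 3 libraries or in any library were tested, and 1 with the GC trend removed. It was 0 with the GC trend removed and a replicate block. The methods' test of unscaled EPR without adjustment gave 4 (Psma1, Psmc6, Psme4 and Psmd11). Over all genes 1996 of 8046 passed that unadjusted test, in either direction. After Benjamini-Hochberg adjustment the test gave 0, and it called 0 of 8046 genes. Leaving out each library in turn gave 0 to 2, with 0 without RPL10A-STAMP replicate 2 or 3. Higher with RPL22-STAMP the count was 0 under every alternative. With the replicate block the count was 1. Same-numbered libraries had correlations of deviations of 0.044, 0.046 and -0.0055 over the genes tested. The labels do not say whether the numbers pair the samples, and correlations this small do not settle it. The block moved the calls over all genes from 1149 to 603. Over all genes the GC trend removed gave 663 calls, with the block 227, genes edited in at least 3 libraries 754 and in any library 569, and leaving out a library 373 to 874. The split of calls was 685 higher and 464 lower with RPL10A-STAMP, and 956 and 129 without scaling.

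The median log2 fold change of core genes (-0.05) became 0.10 without scaling and 0.12 with the length trend removed, and -0.10 to 0.01 with a library left out. That of regulatory genes (-0.07) became 0.072 without scaling, 0.058 with the length trend removed, -0.0027 with the GC trend removed, -0.16 with a pseudocount of 0.001 and -0.12 to 0.077 with a library left out, highest without RPL22-STAMP replicate 1. The mean log2 ratio of core over regulatory genes (0.31) was 0.15 over all members with zeros included and 0.41 without the assembly chaperone genes. It was 0.24 to 0.38 with a library left out. On the log2(EPR + 0.01) scale (0.10) it was 0.058 as a difference of means, 0.075 with the GC trend removed and 0.022 with the length trend removed. Of 300 refits of the 20 named genes, 12 lost a call (Psma1 and Psme4), and 28 changed the sign of a gene that was not called. Psma1 and Psme4 were the only named genes called, so refits of the other genes had no call to lose. The cause of these changes was not tested. The reads behind each EPR are unknown, and 3 libraries per variant limit the precision.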
